A study of Homo sapiens with 12 samples.

Results

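The clustered protocadherins are a family of cell-surface genes that lie side by side on the long arm of human chromosome 5. They were taken here as every entry whose symbol begins with PCDHA, PCDHB or PCDHG and whose locus lies between bases 140000000 and 141000000 of chromosome 5 on hg19. The rule gave 57 of 23615 gene symbols: 15 in the alpha cluster, 19 in the beta cluster and 23 in the gamma cluster. The set holds 4 pseudogenes (PCDHB17, PCDHB18, PCDHB19P and PCDHGB8P) and 5 C-type genes (PCDHAC1, PCDHAC2, PCDHGC3, PCDHGC4 and PCDHGC5).

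Their levels were measured by sequencing poly(A) RNA from hand-picked colonies of H9 and RUES-2 (written RUES2 here), 2 established cell lines derived from human embryos. Each line was kept in the primed state, the usual state of human stem cell cultures, and in the naive state, which resembles an earlier embryonic stage, with 3 libraries in each of the 4 groups. Primed H9 (passages 31 to 35) and primed RUES2 (passages 30 to 33) were grown on mitomycin C-treated mouse feeder fibroblasts with 4 ng/mL bFGF, whereas naive H9 (passages 27 to 31) and naive RUES2 (passages 24 to 26) were grown with 20 ng/mL LIF, 18 µg/mL insulin, 5 mM glucose, 1 µM PD0325901 (a MEK inhibitor) and 3 µM CHIR99021 (a GSK3 inhibitor). No mTOR inhibitor is listed for any of these libraries, and state, medium and passage cannot be told apart.

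Clustered protocadherins are cell-adhesion proteins best known from the nervous system, where each neuron uses its own small combination and like combinations recognise each other between membranes. Each alpha and gamma gene has a variable first exon with its own promoter, spliced to constant exons that are shared along the cluster, whereas each beta gene is a single exon. Most of the promoters carry a short conserved element with the core CGCT, the CTCF protein and cohesin loop chosen promoters to distant enhancers, and DNA methylation and the SMCHD1 protein keep unchosen promoters silent. The C-type genes are regulated apart from the other, alternate genes.

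The promoters are among the sequences that differ between these genes and yet share elements along the locus. RefSeq's promoter table (GRCh38.p14, a newer build than the hg19 of the expression tables) held 47 of the 57 members. The motif searched was CGCT, read on the gene's strand. It was present in the 100 bases upstream of the annotated start in 44 of the 47 members (93.6%) and in 28.0% of all 27305 promoters of the table. On either strand the shares were 93.6% and 44.6%. A match that began between 80 and 35 bases upstream was found in 40 members (85.1%) and in 15% of all promoters. The letters around the core differed by cluster. On either strand of the 250 upstream bases, GATGTCGCT was found in 9 alpha, 0 beta and 0 gamma promoters and in 0.088% of all promoters. GTGGCGCTG was found in 11 beta promoters and in 0 of the other clusters (0.447% of all). GCGCCGCTG was found in 10 gamma promoters and in 0 of the other clusters (0.941% of all). These 3 longer words, each of which holds CGCT, were picked after the letters had been seen. A match is a description of the letters and not a measured binding site.

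The 100 upstream bases are shown for the members whose levels are described most closely below, all on the plus strand, with each CGCT in capitals. PCDHA9, one of the 3 members with no CGCT in this window, is added for contrast.
PCDHA6, chr5:140827860-140827959: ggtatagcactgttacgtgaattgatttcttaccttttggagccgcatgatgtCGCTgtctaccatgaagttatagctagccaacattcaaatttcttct
PCDHA9, chr5:140848282-140848381: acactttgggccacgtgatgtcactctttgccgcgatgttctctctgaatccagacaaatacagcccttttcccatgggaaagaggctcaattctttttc
PCDHA11, chr5:140868857-140868956: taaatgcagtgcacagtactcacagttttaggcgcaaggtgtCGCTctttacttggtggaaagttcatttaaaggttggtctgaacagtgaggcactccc
PCDHB2, chr5:141094515-141094614: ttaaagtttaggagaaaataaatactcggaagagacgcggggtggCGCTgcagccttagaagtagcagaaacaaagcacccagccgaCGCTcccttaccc
PCDHB15, chr5:141245295-141245394: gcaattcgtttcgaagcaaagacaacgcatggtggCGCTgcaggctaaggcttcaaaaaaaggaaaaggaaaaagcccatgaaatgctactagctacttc
PCDHB16, chr5:141182287-141182386: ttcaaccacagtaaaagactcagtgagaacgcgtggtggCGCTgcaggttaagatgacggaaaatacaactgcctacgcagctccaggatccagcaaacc
PCDHGA3, chr5:141343729-141343828: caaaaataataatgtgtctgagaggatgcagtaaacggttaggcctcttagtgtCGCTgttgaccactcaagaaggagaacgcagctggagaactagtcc
PCDHGB4, chr5:141387598-141387697: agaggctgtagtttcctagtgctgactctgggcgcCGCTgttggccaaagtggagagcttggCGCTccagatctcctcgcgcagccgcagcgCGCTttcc
PCDHGA11, chr5:141420951-141421050: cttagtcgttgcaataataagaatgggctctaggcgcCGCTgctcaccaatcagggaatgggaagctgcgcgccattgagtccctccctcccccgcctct
PCDHGC3, chr5:141475866-141475965: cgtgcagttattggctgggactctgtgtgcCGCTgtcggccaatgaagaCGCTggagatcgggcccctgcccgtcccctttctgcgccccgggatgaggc
PCDHGC4, chr5:141484930-141485029: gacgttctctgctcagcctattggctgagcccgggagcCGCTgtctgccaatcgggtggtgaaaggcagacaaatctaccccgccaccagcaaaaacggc

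**Figure D1:**
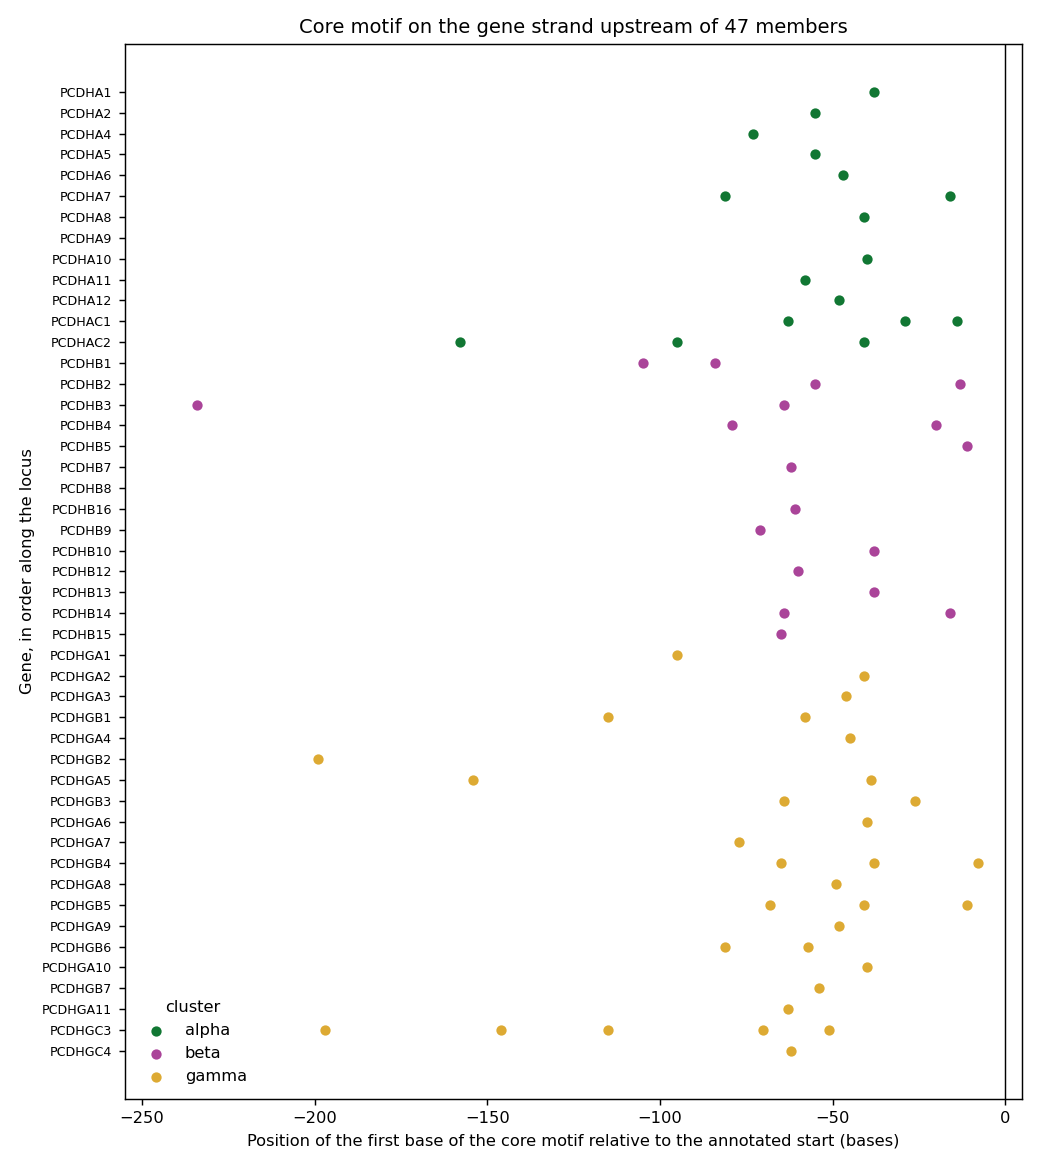
Position of each CGCT on the gene strand, in bases from the annotated start (x axis), in the 250 upstream bases of the 47 members with a RefSeq promoter (y axis, in order along the locus; 1 point per match, coloured by cluster). In 40 of the 47 members a match begins between 80 and 35 bases upstream.

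FPKM, the deposited unit, divides the fragments assigned to a gene by its length and by the size of the library, and the read depth itself is unknown. Between 12681 and 13593 genes per library reached 1 FPKM. The labels number 3 replicates per group without saying whether they came from separate cultures, so each p-value speaks only of the spread between libraries, which may be technical. In a check for mixed-up samples, 3 of the 12 libraries did not match the rest of those carrying their line label, and 0 of these 3 carry the label H9. The check read a few genes as on or off, so a match does not establish the line. The comparison in H9 rests on libraries that matched, and the other comparisons follow the libraries as labelled. In the libraries labelled RUES2, a difference between states may therefore also hold a difference between lines. Below, RUES2 and both lines refer to the labels. Primed H9 replicate 1 stood apart in this family: it was the lowest of its 3 libraries in 18 of 19 beta, 12 of 15 alpha and 12 of 23 gamma members, against 28.1% of all genes tested. The sums of whole clusters, overlap counts, median ratios and direction counts in H9 are therefore given with and without it, and single genes where it decides a call. Shares and sums over parts of a cluster include it.

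Counting also limits single members. In GENCODE 29 transcripts, 13 alpha genes share a 3′ stretch of at least 2866 bases with PCDHAC2 and 20 gamma genes share at least 2181 bases with PCDHGC5, so the levels of alpha and gamma members rest in part on how shared fragments were divided. A median of 55.4% of the 75-base words of an alpha transcript and 48.2% of those of a gamma transcript recur in another member. The median was 8.91% for beta genes, and the highest beta value was 34.6%. How that division affects the levels was not tested.

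Markers of the labelled cell type were present and markers of other cell types moved with state. The summed FPKM of 7 pluripotency genes was 1917 to 2308 in primed H9, 1142 to 1199 in naive H9, 1804 to 2250 in primed RUES2 and 1285 to 1590 in libraries labelled naive RUES2. The sum of 7 fibroblast genes was 33.2 to 64.7, 314.6 to 484.7, 24.4 to 53.6 and 190.0 to 1047 in the same order, and 7 of 7 rose in H9 and 6 of 7 in RUES2. The sum of 8 neuronal genes was 77.0 to 123.4, 190.5 to 208.6, 61.5 to 113.8 and 236.6 to 310.2. Of these 8, 3 rose and 2 fell in H9, and 3 rose and 1 fell in RUES2. DCX, SNAP25 and ELAVL3 stayed under the filter, and the highest value among them was 1.03 FPKM. The other 5 neuronal genes (TUBB3, MAP2, STMN2, SYT1 and RBFOX3) passed it. The sum of 5 neural progenitor genes was 66.3 to 73.1, 97.7 to 113.3, 47.1 to 75.2 and 57.9 to 84.9, and 2 of the 3 tested rose in each line. The sum of 4 trophectoderm genes was 3.69 to 11.1, 23.2 to 85.4, 8.19 to 16.6 and 14.8 to 44.2, with no overlap between the states of H9, and 2 rose and 1 fell in H9, and 2 rose and 2 fell in RUES2. The sum of 3 endoderm genes was 3.17 to 10.4, 9.32 to 12.7, 6.83 to 10.5 and 11.3 to 25.1, with no overlap between the states of RUES2, and 1 rose and 1 fell in H9 and 2 rose and 0 fell in RUES2 (limma). The sum of 4 neural crest genes was 8.69 to 11.3, 6.56 to 25.1, 4.34 to 7.98 and 3.80 to 10.6, and of the 3 tested 1 rose and 2 fell in each line. Over all genes tested, 20.4% rose and 23.9% fell in H9, and 23.1% rose and 23.7% fell in RUES2. The part of fibroblast, neuronal, trophectoderm, endoderm or other cells in the levels of the members was not tested.

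Most members had low values above 0 in all 4 groups. For alpha and gamma members such a value may rest on shared fragments, so it does not by itself show expression of that member. Only 2 of the 684 member values were 0, both of PCDHB1, and 40 members had a deposited lower confidence bound above 0 in all 12 libraries. Over the 12 libraries 23 members reached 1 FPKM in at least 3 libraries, the filter used for testing: 8 alpha, 6 beta and 9 gamma. A further 6 reached it in 1 or 2 libraries and 28 in none. The 34 members under the filter ranged from 0 to 1.92 FPKM. Only 5 members reached 5 FPKM in any library: PCDHB2, PCDHB5, PCDHGC3, PCDHGB4 and PCDHGA10. In bulk samples, fewer expressing cells and less RNA per cell cannot be told apart, so these levels do not show how many members a single cell uses.

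A few members carried each cluster. PCDHB2 was the highest beta gene in all 12 libraries and PCDHGC3 the highest gamma gene in 11 of 12. PCDHGC3 made up 36.5% ± 5.32 (SD, n = 3) of the summed gamma FPKM in primed H9, 40.9% ± 2.84 in naive H9, 20.1% ± 3.44 in primed RUES2 and 39.7% ± 2.86 in libraries labelled naive RUES2. PCDHB2 made up 35.9% ± 9.03 of the beta sum in primed H9 and 51.1% ± 2.59 in naive H9. In the alpha cluster the level was spread more evenly: PCDHA10, the highest on average, was first in 7 of the 12 libraries. It made up 14.6% ± 2.22 of the alpha sum in primed H9, 19.1% ± 3.48 in naive H9, 11.4% ± 2.18 in primed RUES2 and 19.3% ± 3.34 in libraries labelled naive RUES2. In primed H9 the share of PCDHA11 was higher, at 18.0% ± 3.26. Across the 57 members, the correlation of log2(FPKM + 1) between libraries of the same group ran from 0.816 to 0.989, and between primed and naive H9 libraries from 0.743 to 0.863. These correlations are across genes that share libraries and sequence, and describe the profiles only.

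**Figure D2:**
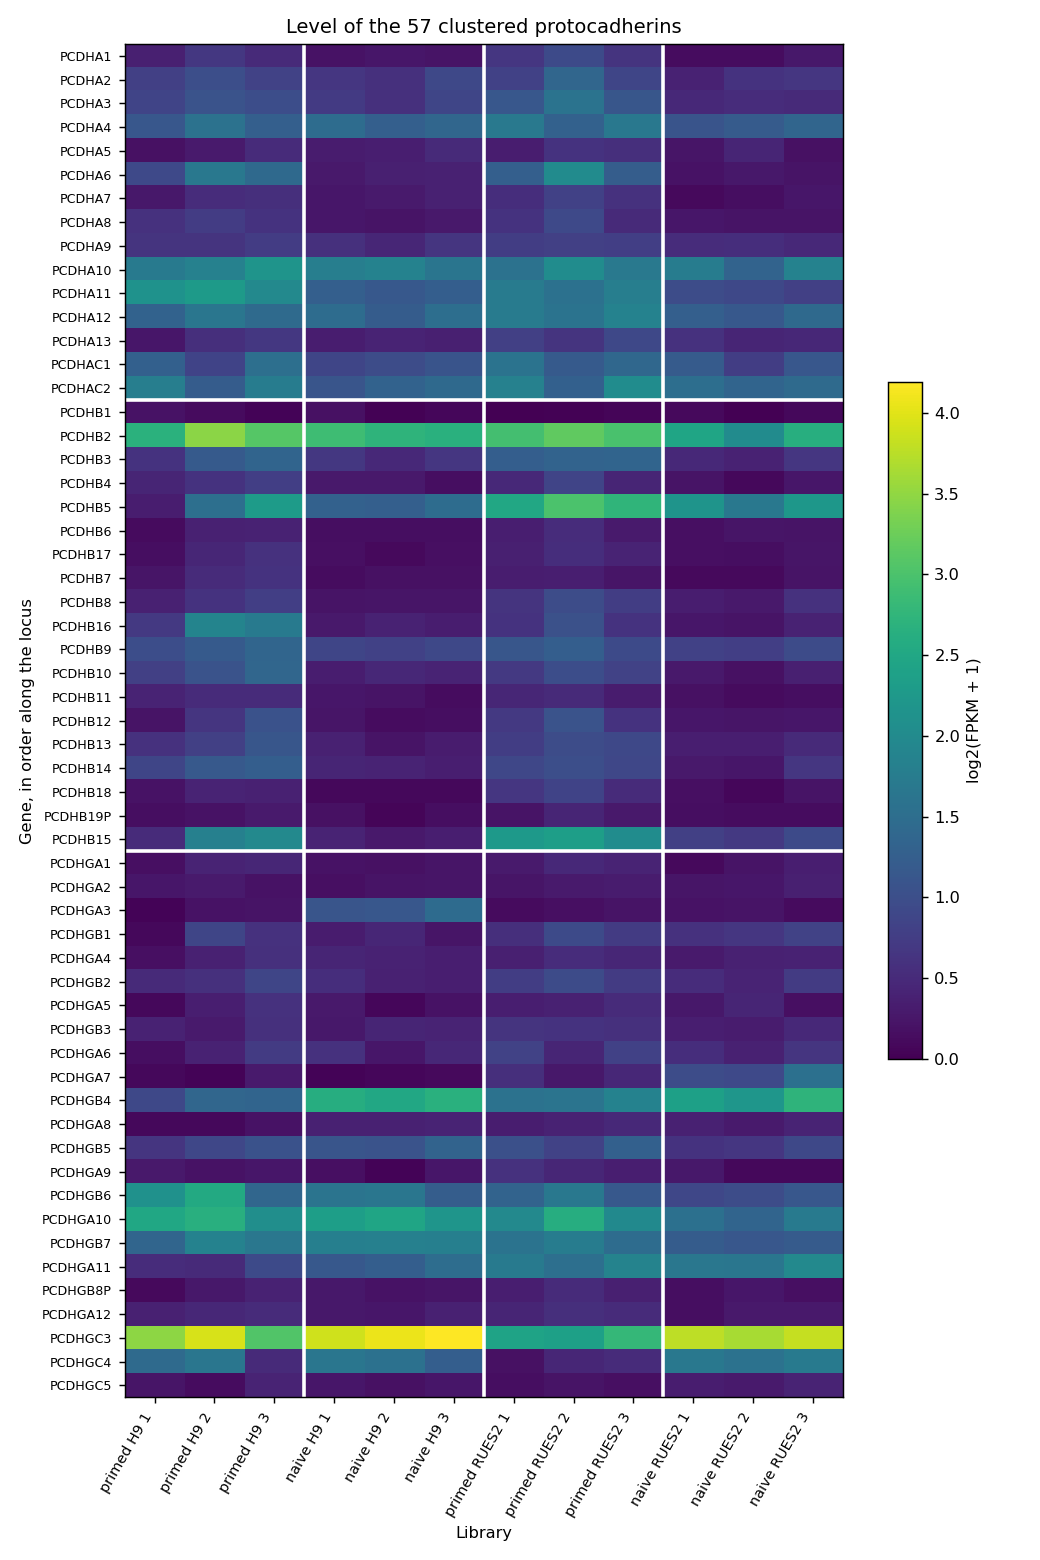
Level of each of the 57 members (rows, in order along the locus, with white lines between the alpha, beta and gamma clusters) in each of the 12 libraries (columns, with white lines between groups), coloured by log2(FPKM + 1). PCDHGC3 and PCDHB2 are the brightest rows, and primed H9 replicate 1 is darker than the other primed H9 libraries across most beta genes.

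The first question was how the summed level of each cluster compared between the states. The alpha sum was lower in the naive libraries of both line labels. It was 16.6, 20.0 and 20.4 FPKM in the primed H9 libraries and 12.4, 11.9 and 13.7 in the naive H9 libraries. It was 20.1, 22.3 and 21.1 in primed RUES2 and 11.4, 9.91 and 12.2 in libraries labelled naive RUES2. In both lines every naive library lay below every primed library, and the primed mean was 1.5-fold the naive mean in H9 (1.59-fold without primed H9 replicate 1) and 1.90-fold in RUES2.

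The beta sum was also lower in the naive libraries, with 1 primed library close to them. It was 12.2, 26.6 and 28.8 FPKM in primed H9 and 12.2, 10.7 and 11.1 in naive H9, so primed H9 replicate 1 stood barely above the highest naive library. It was 23.9, 31.6 and 24.5 in primed RUES2 and 12.2, 8.75 and 14.8 in libraries labelled naive RUES2, with no overlap. The primed mean was 1.98-fold the naive mean in H9 (2.44-fold without primed H9 replicate 1) and 2.24-fold in RUES2. Without PCDHB2, the most abundant beta gene, the sums were 14.9 ± 7.34 and 5.55 ± 0.390 FPKM in H9 and 19.5 ± 3.57 and 7.64 ± 1.93 in RUES2 (mean ± SD, n = 3), for primed and naive respectively.

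The gamma sum went the other way. It was 25.7, 36.1 and 24.1 FPKM in primed H9 and 36.5, 38.0 and 39.7 in naive H9. It was 21.9, 25.2 and 25.0 in primed RUES2 and 30.3, 27.9 and 36.2 in libraries labelled naive RUES2. Every naive library lay above every primed library of its line, although primed H9 replicate 2 came close to the lowest naive H9 library. The naive mean was 1.33-fold the primed mean in H9 (1.26-fold without primed H9 replicate 1) and 1.31-fold in RUES2. Leaving out PCDHGC3, PCDHGC4 and PCDHGB4, a choice made after their values were seen, the gamma sum was 15.3 ± 2.62 and 15.6 ± 0.118 in primed and naive H9 and 16.6 ± 1.69 and 12.4 ± 2.34 in RUES2. The other 20 gamma genes together thus had overlapping sums in the 2 states of H9 and a lower sum in the libraries labelled naive RUES2. The 3 cluster sums are descriptions with no test.

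**Figure D3:**
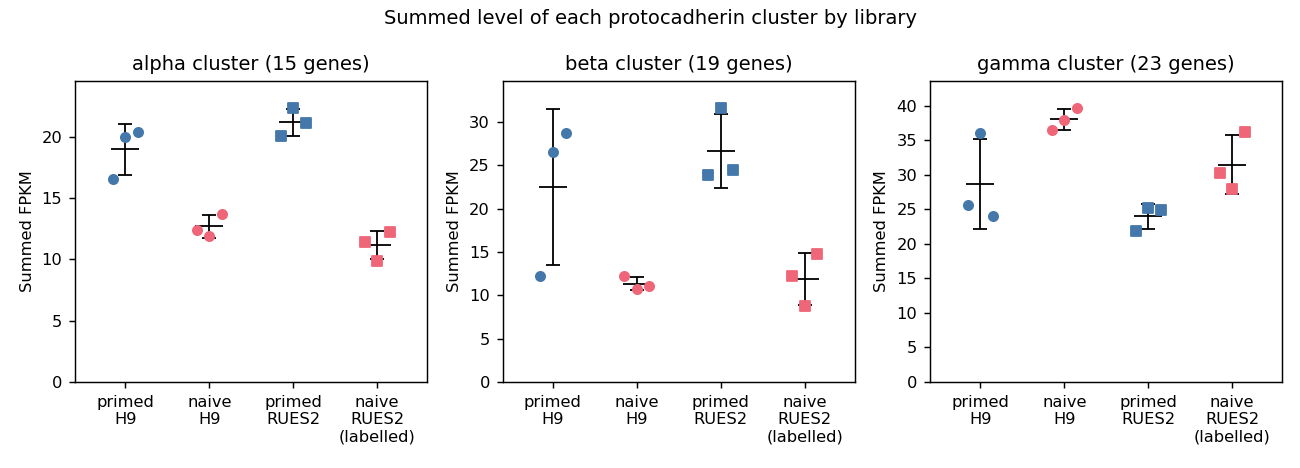
Summed FPKM of the alpha, beta and gamma clusters (y axes from 0) in each library (points; circles H9, squares RUES2; blue primed, red naive), with the mean and SD of the 3 libraries of a group (bars). The alpha and beta sums are lower in the naive groups and the gamma sum is higher, and 1 primed H9 library lies at the naive level in the beta panel.

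The comparison of naive with primed H9 asked which members changed with state in this line. All 57 members were first compared by whether the 3 naive and 3 primed libraries overlapped. In 15 members (26.3%) all naive values lay below all primed values: 4 alpha, 11 beta and 0 gamma genes. The background was 26.2% of the 21322 genes above 0 in any library, so the share over the whole family was near the background, and the members were unevenly divided among clusters (26.7% of alpha, 57.9% of beta and 0% of gamma). In 5 members (8.77%, background 21.8%), all of them gamma genes, the naive values lay above all primed values. Without primed H9 replicate 1, 30 members (7 alpha, 18 beta and 5 gamma) were lower with no overlap, against a background of 30.7%, and 5 gamma genes were higher (background 24.3%). The median ratio of naive to primed mean FPKM was 0.704 over alpha, 0.339 over beta and 0.903 over gamma members, and 0.962 over all genes. Without primed H9 replicate 1 these medians were 0.728, 0.280, 0.794 and 0.956.

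The test gave a count of the same kind. Changes are given as the naive mean minus the primed mean of log2(FPKM + 1), a scale that understates the change of low genes, and p-values were adjusted over all 14429 genes tested. Of the 23 members that passed the filter, 4 rose in naive H9 (background 20.4% of genes tested) and 5 fell (background 23.9%). The 4 that rose were gamma genes. The 5 that fell were 2 alpha and 3 beta genes. Of these, PCDHA6, PCDHB16, PCDHB9 and PCDHB15 reached 1 FPKM in primed libraries only. They entered the test through the state in which they are high, so their place in the count is a description. With no filter, limma called 15 of the 57 members lower (4 alpha and 11 beta; 26.3%, background 18.4%) and 4 higher (all gamma; 7.02%, background 15.1%).

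Among the alpha genes, PCDHA11 and PCDHA6 fell. Both are alternate genes, each with its own variable exon and promoter. PCDHA11 (chromosome 5, 140247831 to 140391929 of hg19, constant exons included) measured 3.39, 3.86 and 2.92 FPKM in primed H9 and 1.42, 1.22 and 1.37 in naive H9 (log2 difference -0.9 ± 0.1 SE, limma adjusted p = 9.01e-05). PCDHA6 (140207650 to 140391929) measured 0.903, 2.2 and 1.71 in primed and 0.222, 0.291 and 0.299 in naive H9 (log2 difference -1.0 ± 0.22 SE, limma adjusted p = 0.00479). In both genes every naive library lay below every primed library, and both calls held without any 1 library (adjusted p up to 0.000716 and 0.0189). PCDHA6 entered the test through the primed libraries, so its call is a description that these fits do not strengthen. PCDHA10, PCDHA12 and PCDHA3 did not pass. PCDHA10 measured 2.26, 2.6 and 3.5 in primed and 2.47, 2.64 and 2.09 in naive H9 (-0.15, limma adjusted p = 0.528), and PCDHA12 measured 1.5, 2.14 and 1.73 in primed and 1.81, 1.33 and 1.85 in naive libraries (-0.07, limma adjusted p = 0.706). Both overlapped between the states. PCDHA3 measured 0.804, 1.11 and 0.977 in primed and 0.636, 0.501 and 0.834 in naive libraries (-0.25, limma adjusted p = 0.172), also with overlap.

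Among the beta genes, PCDHB16, PCDHB15 and PCDHB9 fell. Beta genes have no constant exons, so their proteins lack the shared cytoplasmic end of the alpha and gamma proteins. PCDHB16 (140560980 to 140565796) measured 0.622, 2.7 and 2.32 FPKM in primed and 0.218, 0.317 and 0.267 in naive H9 (log2 difference -1.1 ± 0.26 SE, limma adjusted p = 0.00694). PCDHB15 (140625147 to 140627801) measured 0.433, 2.55 and 2.91 in primed and 0.342, 0.226 and 0.274 in naive H9 (log2 difference -1.08 ± 0.31 SE, limma adjusted p = 0.0154). In both genes the primed H9 replicate 1 was several-fold lower than the other primed libraries but still above the naive ones. The PCDHB15 call ended without primed H9 replicate 2 or 3 (adjusted p = 0.0506 and 0.0571). PCDHB9 measured 0.995, 1.28 and 1.57 in primed and 0.839, 0.744 and 0.875 in naive libraries (log2 difference -0.32 ± 0.12 SE, limma adjusted p = 0.0473), a call near the threshold that ended in 9 of the 12 fits that left out a library (adjusted p 0.0543 to 0.147) and with the replicate number as a block (0.0698). Those 9 left out primed H9 replicate 2 or 3, primed RUES2 replicate 1, or any 1 of the 6 naive libraries.

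The other beta genes tested did not pass in H9. PCDHB2, the most abundant beta gene, measured 5.36, 10.04 and 7.5 FPKM in primed and 6.43, 5.64 and 5.35 in naive H9 (-0.31, limma adjusted p = 0.235), with primed H9 replicate 1 below 2 of the naive libraries. PCDHB3 measured 0.531, 1.26 and 1.54 in primed and 0.593, 0.393 and 0.578 in naive libraries (-0.44, limma adjusted p = 0.0547), and passed without primed H9 replicate 1 (adjusted p = 0.00233) or without the variance trend (0.0485). PCDHB5 measured 0.255, 1.87 and 3.93 in primed and 1.46, 1.41 and 1.8 in naive libraries (-0.03, limma adjusted p = 0.957), with a wide spread among the primed libraries. Of the 13 beta genes under the filter, 0 had a value above 1.62 FPKM.

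Among the gamma genes, PCDHGB4, PCDHGA3, PCDHGA11 and PCDHGC3 rose. PCDHGB4 (140767452 to 140892546), an alternate gene of the B type, measured 0.878, 1.61 and 1.54 FPKM in primed and 5.07, 4.69 and 5.31 in naive H9 (log2 difference 1.38 ± 0.16 SE, limma adjusted p = 0.000103). PCDHGA3 (140723601 to 140892546), of the A type, measured 0.0278, 0.147 and 0.170 in primed and 1.16, 1.21 and 1.77 in naive H9 (log2 difference 1.09 ± 0.11 SE, limma adjusted p = 4.45e-05). It passed the filter only through the naive H9 libraries, the group in which it is high, so its place among the members that rose is a description and supports no count. PCDHGA11 measured 0.447, 0.412 and 0.917 in primed and 1.23, 1.39 and 1.83 in naive libraries (log2 difference 0.65 ± 0.16 SE, limma adjusted p = 0.00737). None of these 3 genes overlapped between the states of H9.

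PCDHGC3 (140855569 to 140892546) is a C-type gene, and in mouse neurons its protein supports dendrite branching. It measured 10.2, 14.3 and 7.32 FPKM in primed and 13.8, 15.7 and 17.2 in naive H9 (log2 difference 0.56 ± 0.2 SE, limma adjusted p = 0.0406), with overlap: primed H9 replicate 2 lay above naive H9 replicate 1. That call ended without any filter (adjusted p = 0.0568), when only the H9 libraries were fitted (0.0900), with the replicate number as a block (0.0634) and in 8 of the 12 fits that left out a library (0.0517 to 0.133). Those 8 left out primed H9 replicate 1 or 3, primed RUES2 replicate 1, any 1 naive H9 library, or naive RUES2 replicate 1 or 3. Of the other gamma genes that passed the filter, PCDHGA10 (-0.07, limma adjusted p = 0.795) and PCDHGB7 (0.18, limma adjusted p = 0.26) overlapped between the states of H9.

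The libraries labelled RUES2 were compared between states in the same way. All naive values lay below all primed values in 35 of the 57 members (61.4%, background 25.7%): 10 alpha, 17 beta and 8 gamma genes. They lay above in 5 gamma genes (8.77%, background 23.1%). The median ratio of naive to primed mean was 0.521 over alpha, 0.386 over beta and 0.711 over gamma members, and 0.982 over all genes. Of the 23 members that passed the filter, 3 rose (background 23.1%) and 9 fell (background 23.7%). The 9 were 4 alpha, 3 beta and 2 gamma genes. Among them, PCDHA3, PCDHA6, PCDHB3 and PCDHB15 reached 1 FPKM in primed libraries only. They too entered the test through the state in which they are high, so their place in the count is a description. With no filter, 27 of the 57 members were called lower (9 alpha, 12 beta and 6 gamma; 47.4%, background 19.6%) and 4 higher (7.02%, background 17.3%). This comparison holds libraries that carry the doubt about the line label given above.

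PCDHA6, PCDHA11 and PCDHB15, which fell in H9, also fell here. PCDHA6 measured 1.42, 3.06 and 1.35 FPKM in primed RUES2 and 0.150, 0.204 and 0.161 in libraries labelled naive RUES2 (log2 difference -1.28 ± 0.22 SE, limma adjusted p = 0.00107). PCDHA11 measured 2.34, 1.97 and 2.47 in primed and 0.964, 0.866 and 0.741 in naive libraries (log2 difference -0.81 ± 0.1 SE, limma adjusted p = 0.00017). PCDHB15 measured 3.74, 4.08 and 3.12 in primed and 0.737, 0.619 and 0.916 in naive libraries (log2 difference -1.4 ± 0.31 SE, limma adjusted p = 0.00381). The states did not overlap in any of the 3 genes, and the calls held without any 1 library (adjusted p up to 0.00508, 0.00118 and 0.0153). PCDHA6 and PCDHB15 entered the test through the primed libraries, so their calls are descriptions that these fits do not strengthen.

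PCDHA3, PCDHA12, PCDHB2 and PCDHB3 fell as well. PCDHA3 measured 1.19, 2.02 and 1.17 FPKM in primed RUES2 and 0.392, 0.450 and 0.407 in libraries labelled naive RUES2 (log2 difference -0.78 ± 0.14 SE, limma adjusted p = 0.00119). PCDHB3 measured 1.37, 1.52 and 1.55 in primed and 0.394, 0.313 and 0.581 in naive libraries (log2 difference -0.8 ± 0.17 SE, limma adjusted p = 0.00323). PCDHB2 measured 6.64, 8.02 and 6.94 in primed and 4.5, 3.06 and 5.2 in naive libraries (log2 difference -0.66 ± 0.2 SE, limma adjusted p = 0.0205). All 3 genes were without overlap, and PCDHA12 (2.33, 2.01 and 2.62 in primed and 1.41, 1.23 and 1.71 in naive libraries; -0.44, limma adjusted p = 0.0168) was so too. The PCDHB2 call ended without primed RUES2 replicate 2 (adjusted p = 0.0648) or naive RUES2 replicate 2 (0.0791), and the PCDHA12 call without primed RUES2 replicate 3 (0.0579) or naive RUES2 replicate 2 (0.0617). PCDHB16 measured 0.523, 1.06 and 0.537 in primed and 0.191, 0.169 and 0.316 in naive libraries and did not pass (-0.47, limma adjusted p = 0.171). PCDHB9 (-0.26, limma adjusted p = 0.098) and PCDHB5 (-0.73, limma adjusted p = 0.152) did not pass either, and PCDHB5 measured 4.71, 6.98 and 5.68 in primed and 3.48, 2.21 and 3.68 in naive libraries, without overlap. Without primed H9 replicate 1 PCDHB16 (0.0164) and PCDHB5 (0.0234) passed. An H9 library enters this comparison only through the spread, which the 4 groups share, and the set of genes tested. PCDHB5 also passed when only the libraries labelled RUES2 were fitted (limma adjusted p = 0.0220).

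PCDHGC3, PCDHGC4 and PCDHGB4 rose in these libraries. PCDHGC3 measured 4.37, 4.21 and 5.89 FPKM in primed RUES2 and 12.6, 11.5 and 13.2 in libraries labelled naive RUES2 (log2 difference 1.21 ± 0.2 SE, limma adjusted p = 0.000657). PCDHGC4 (140864741 to 140892546), a C-type gene needed for neuron survival in mice, measured 0.146, 0.361 and 0.428 in primed and 2.2, 1.99 and 2.3 in naive libraries (log2 difference 1.28 ± 0.25 SE, limma adjusted p = 0.00217). PCDHGB4 measured 2.0, 2.04 and 2.64 in primed and 4.23, 3.57 and 5.61 in naive libraries (log2 difference 0.75 ± 0.16 SE, limma adjusted p = 0.00364). Every naive value lay above every primed value in all 3 genes, and the calls held without any 1 library (adjusted p up to 0.00372, 0.0107 and 0.0162). PCDHGA10 and PCDHGB7 fell. PCDHGA10 measured 2.93, 5.12 and 2.95 in primed and 1.92, 1.55 and 2.27 in naive libraries (log2 difference -0.66 ± 0.2 SE, limma adjusted p = 0.02), and PCDHGB7 measured 2.04, 2.37 and 1.78 in primed and 1.32, 1.2 and 1.31 in naive libraries (log2 difference -0.42 ± 0.12 SE, limma adjusted p = 0.0161). Both calls ended without primed RUES2 replicate 2 (0.0643 and 0.0557), and that of PCDHGA10 also without naive RUES2 replicate 2 (0.0715).

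**Figure D4:**
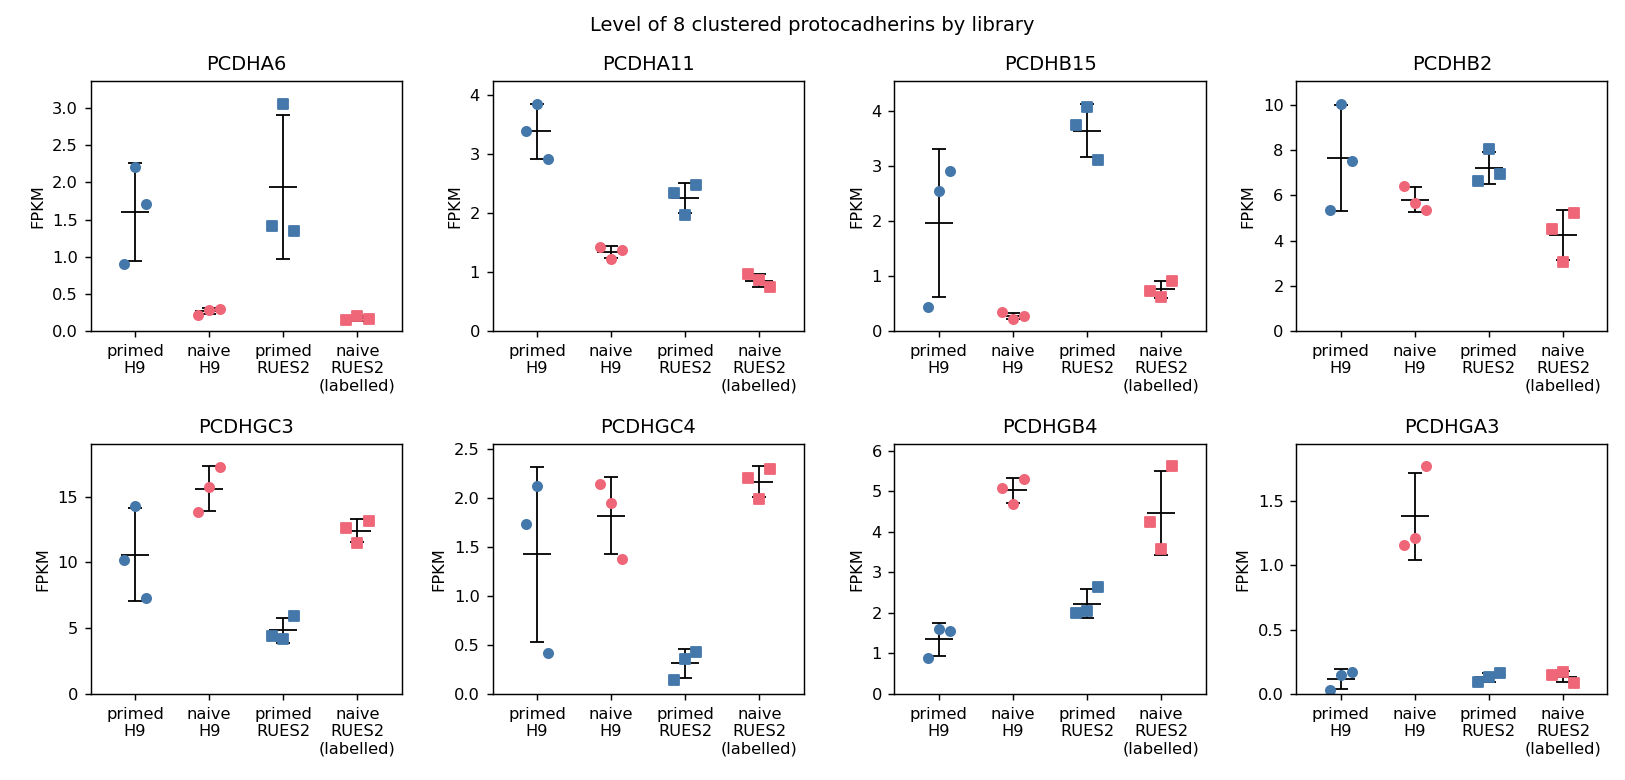
FPKM (y axes from 0) of 8 named members in each library (points; circles H9, squares RUES2; blue primed, red naive), with the mean and SD of the 3 libraries of a group (bars). PCDHA6, PCDHA11 and PCDHB15 are lower in both naive groups, PCDHGB4 is higher in both, and PCDHGA3 is high in naive H9 only, at 1.16 FPKM and above.

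The direction of the means could be compared between the lines because the state comparisons share no library. The naive mean was lower in both lines in 42 members (13 of 15 alpha, 18 of 19 beta and 11 of 23 gamma) and higher in both in 5, all gamma genes: PCDHGA3, PCDHGB4, PCDHGA11, PCDHGC3 and PCDHGC4. Of these 5, only PCDHGB4 and PCDHGC3 were called in both lines. PCDHGA3 and PCDHGA11 were nearly level in RUES2 (naive over primed 1.04 and 1.06). It was higher in H9 and lower in RUES2 in 7 members and the reverse in 3. These counts include primed H9 replicate 1. Without it, PCDHA4, PCDHA5, PCDHGA4 and PCDHGA6 were also lower in naive H9. PCDHB1, a beta gene with a mean of 0.0551 FPKM, was then higher in naive H9 (ratio 1.20, and 2.43 in RUES2). The naive mean was lower in 45 of 57 members in H9 (78.9%, against 53.6% of all genes; without primed H9 replicate 1 in 48, 84.2% against 54.2%) and in 49 of 57 in RUES2 (86.0%, against 51.8%). These counts are descriptions, since members share sequence and libraries.

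**Figure D5:**
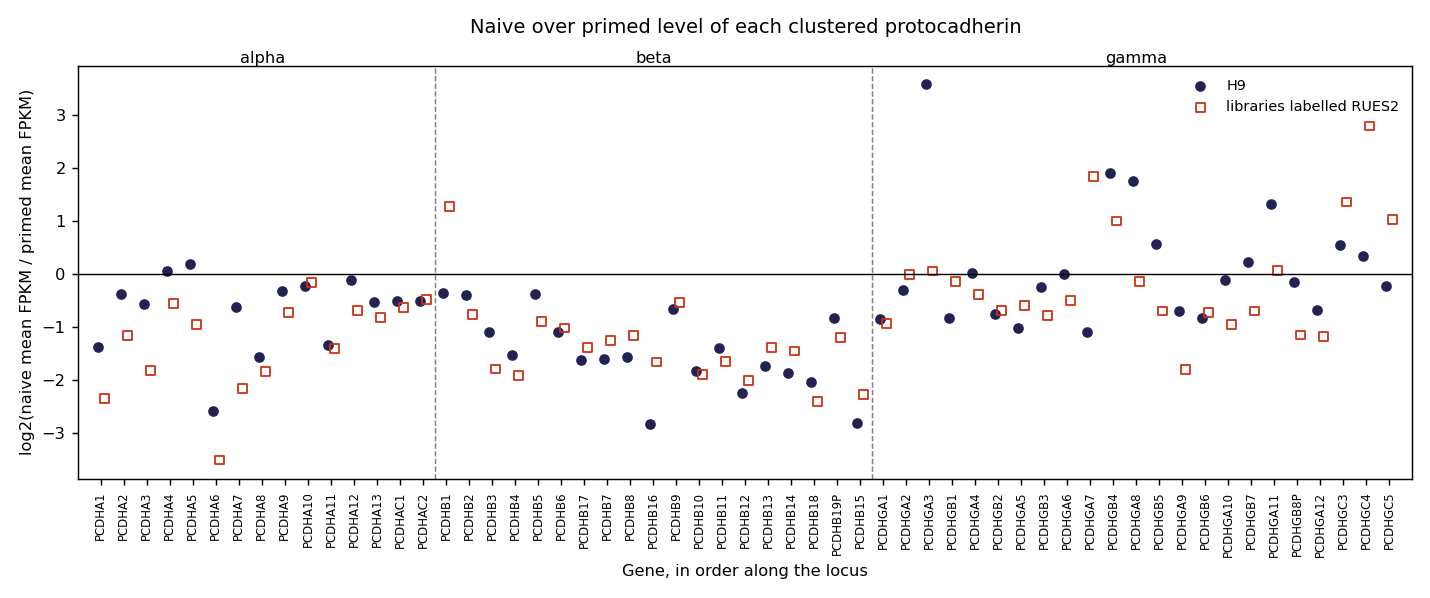
log2 of the ratio of naive to primed mean FPKM (y axis) for each of the 57 members in order along the locus (x axis), in H9 (filled circles) and in libraries labelled RUES2 (open squares). Most alpha and beta points lie below 0 in both lines, and the points above 0 in both lines are 5 gamma genes. Of these, PCDHGA3 and PCDHGA11 lie close to 0 in libraries labelled RUES2.

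The difference of the naive effect between the line labels passed the test in 1 of the 23 members (background 5.7%), PCDHGA3, whose effect was lower in RUES2 (background 1.93% lower and 3.77% higher). It measured 0.0915, 0.130 and 0.166 FPKM in primed RUES2 and 0.146, 0.171 and 0.0876 in libraries labelled naive RUES2, where the states overlapped, against the values above 1 FPKM in every naive H9 library (log2 difference -1.08 ± 0.16 SE, limma adjusted p = 0.0049). Since PCDHGA3 entered the test only through the naive H9 libraries, where it is high, the count of 1 is a description. Over all genes with no filter, the adjusted p of its difference was 0.00291. At an unadjusted p under 0.05, 2 members had a higher and 6 a lower effect in RUES2 (limma). The difference was not called for several genes that passed in 1 line only: PCDHGA11 (-0.59, limma adjusted p = 0.154; 95% interval -1.11 to -0.08), PCDHGC4 (0.99, limma adjusted p = 0.141; 0.17 to 1.81), PCDHB16 (0.63, limma adjusted p = 0.371; -0.22 to 1.49) and PCDHGB7 (-0.6, limma adjusted p = 0.072; -1.0 to -0.2). The intervals were set on the residual degrees of freedom alone, so they are slightly wider than the limma test implies. Leaving out primed H9 replicate 1 brought PCDHB16 past the threshold (adjusted p = 0.0235), leaving out replicate 2 did so for PCDHGB7 (0.0317) and leaving out replicate 3 for PCDHGC4 (0.00836). PCDHGA11 passed with the replicate number as a block (0.0377). PCDHGA7, named after its values were seen and under the filter, measured 0.962, 0.892 and 1.92 FPKM in libraries labelled naive RUES2 and at most 0.472 in every other library.

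The lines were also compared within each state. In the primed state 1 of 23 members was higher in RUES2 (background 1.34%) and 1 lower (background 0.471%; 1.82% in either direction). PCDHGA11 was higher in primed RUES2, at 2.27, 1.89 and 2.65 FPKM against 0.447, 0.412 and 0.917 in primed H9, with no overlap (log2 difference 1.05 ± 0.16 SE, limma adjusted p = 0.0136). That call ended when only the primed libraries were fitted (adjusted p = 0.130) or without primed RUES2 replicate 1 (0.0703). PCDHGC3 was lower in primed RUES2 (log2 difference -0.96 ± 0.2 SE, limma adjusted p = 0.0408), with no overlap, but the call ended when only the primed libraries were fitted (0.266), with no filter (0.0513), with a filter of 5 FPKM (0.0541), with the replicate number as a block (0.0798) and in 10 of the 12 fits that left out a library (0.0548 to 0.181), all but those without primed H9 replicate 3 or primed RUES2 replicate 3. PCDHB5 measured 4.71, 6.98 and 5.68 in primed RUES2 against 0.255, 1.87 and 3.93 in primed H9, without passing (1.37, limma adjusted p = 0.126). It passed without primed H9 replicate 3 (0.0221), as did PCDHGC4 (0.00599), and PCDHB16 passed without primed H9 replicate 1 (0.0123).

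In the naive state 3 members were lower in the libraries labelled RUES2 than in H9 (background 4.69%) and 0 higher by limma (background 11.2%), with 1 higher at an unadjusted p under 0.05. PCDHGA3 was lower (log2 difference -1.06 ± 0.11 SE, limma adjusted p = 0.000311), a difference from the same naive H9 libraries that brought it past the filter, and is counted as a description. With no filter its adjusted p was 0.000173. PCDHGB7 measured 2.49, 2.52 and 2.5 FPKM in naive H9 and 1.32, 1.2 and 1.31 in libraries labelled naive RUES2 (log2 difference -0.62 ± 0.12 SE, limma adjusted p = 0.00736). PCDHGA10 measured 4.07, 4.53 and 3.53 and 1.92, 1.55 and 2.27 (log2 difference -0.79 ± 0.2 SE, limma adjusted p = 0.0225), and its call ended without naive H9 replicate 1 or 2 or naive RUES2 replicate 1 or 2 (adjusted p 0.0650 to 0.0922). None of the 3 genes overlapped between the groups. PCDHA11, not called in the main fit (limma adjusted p = 0.056), passed in 3 of the fits that left out a library (0.0357 to 0.0467). It also passed with a pseudocount of 0.1 (0.0277), no variance trend (0.0435) or median-of-ratios scaling (0.0404), and when only the naive libraries were fitted (0.0411).

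The 5 C-type genes sit at the 3′ ends of the alpha and gamma clusters. Summed over PCDHGC3, PCDHGC4 and PCDHGC5, the gamma C-type level was 12.2 ± 4.24 FPKM in primed and 17.6 ± 1.33 in naive H9, and 5.27 ± 1.02 in primed and 14.9 ± 1.09 in naive-labelled RUES2 (mean ± SD, n = 3). PCDHGC4 was not called between the states of H9, at 1.74, 2.12 and 0.413 in primed and 2.14, 1.94 and 1.38 in naive libraries (0.29, limma adjusted p = 0.378). PCDHGC5 stayed under the filter, at 0.174, 0.107 and 0.328 in primed H9, 0.198, 0.137 and 0.190 in naive H9, 0.118, 0.163 and 0.126 in primed RUES2 and 0.260, 0.232 and 0.340 in libraries labelled naive RUES2. The alpha C-type genes did not pass in either line. PCDHAC2, whose mouse protein spaces serotonergic axons, measured 2.44, 1.32 and 2.37 in primed and 1.14, 1.49 and 1.69 in naive H9 (-0.3, limma adjusted p = 0.253), and 2.59, 1.44 and 3.1 in primed and 1.85, 1.56 and 1.72 in naive libraries of RUES2 (-0.29, limma adjusted p = 0.277). It passed in RUES2 without primed RUES2 replicate 2 (adjusted p = 0.0453). PCDHAC1 measured 1.45, 0.785 and 1.89 in primed and 0.832, 0.974 and 1.11 in naive libraries of H9 (-0.24, limma adjusted p = 0.32) and 2.01, 1.28 and 1.64 in primed and 1.29, 0.695 and 1.21 in naive libraries of RUES2 (-0.36, limma adjusted p = 0.14).

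Lists of related genes were set beside the shares over all genes tested. These shares were 20.4% higher and 23.9% lower in H9, and 23.1% higher and 23.7% lower in RUES2 (limma). They apply to each list below. Genes known to act on the locus changed in both directions. Of 11 tested genes for CTCF and cohesin, 3 rose and 0 fell in H9, and 1 rose and 3 fell in RUES2 (limma). STAG1, one of the alternative cohesin subunits, rose in H9 from 7.49 ± 2.86 to 14.3 ± 0.864 FPKM (0.91, adjusted p = 0.00565) and in RUES2 from 7.33 ± 0.668 to 11.7 ± 0.192 (0.61, adjusted p = 0.0349), where the call ended without any 1 of the RUES2 libraries (limma adjusted p 0.0518 to 0.102). STAG2, the other alternative, rose in H9 from 27.6 ± 1.05 to 43.3 ± 2.34 (0.63, adjusted p = 0.0172), a limma call that ended without naive H9 replicate 1 (0.0506) or 2 (0.0521). In RUES2 it was not called (-0.28, adjusted p = 0.237) except without primed RUES2 replicate 2 (0.00411), where it was lower. CTCF itself, named after its values were seen, did not pass in H9 (0.14, adjusted p = 0.268) or RUES2 (-0.19, adjusted p = 0.13; limma).

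Of 16 genes for DNA methylation and silencing, 4 rose and 4 fell in H9, and 2 rose and 5 fell in RUES2. DNMT3B, the de novo methyltransferase that methylates protocadherin promoters in the early mouse embryo, measured 373, 254 and 325 FPKM in primed and 73.9, 75.8 and 83.6 in naive H9 (-2.0, adjusted p = 5.11e-06, limma), and 418, 439.6 and 358 in primed and 71.3, 55.7 and 56.9 in naive libraries of RUES2 (-2.71, adjusted p = 9.68e-07, limma). DNMT3L, a cofactor of that enzyme, rose in both lines (3.42, adjusted p = 8.38e-05, and 4.49, adjusted p = 1.47e-05; limma). SMCHD1, a repressor of the locus named after its values were seen, was not called in either line (0.02, adjusted p = 0.871, and 0.21, adjusted p = 0.118; limma). Whether any of these levels bears on the members was not tested.

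Of 17 genes that process the proteins or signal from them, 3 rose and 4 fell in H9, and 3 rose and 4 fell in RUES2. APH1B, a subunit of the gamma-secretase that releases their cytoplasmic ends, fell in H9 from 5.22 ± 0.705 to 2.16 ± 0.234 FPKM (-0.97, adjusted p = 4.11e-05, limma) and in RUES2 from 5.5 ± 0.357 to 1.85 ± 0.0888 (-1.19, adjusted p = 1.16e-05, limma). CYFIP2, a part of the WAVE complex that controls actin, fell in both (-1.32, adjusted p = 0.000157, and -0.55, adjusted p = 0.0194; limma), and the RUES2 call ended without primed RUES2 replicate 3 or naive RUES2 replicate 1 or 3 (0.0595 to 0.0732). Among 8 tested protocadherins outside the clusters, 3 rose and 1 fell in H9, and 4 rose and 1 fell in RUES2. PCDH1, the 1 that fell, went from 37.6 ± 10.4 to 18.1 ± 1.26 FPKM in H9 (-0.98, adjusted p = 0.000542, limma) and from 40.9 ± 2.73 to 12.8 ± 0.710 in RUES2 (-1.6, adjusted p = 2.41e-05, limma). PCDH10 measured 11.7, 3.27 and 2.17 in primed and 9.51, 9.78 and 11.6 in naive H9, with overlap (1.02, adjusted p = 0.0712, limma), and rose in RUES2 from 4.03 ± 1.08 to 14.6 ± 3.22 (1.64, adjusted p = 0.00898, limma). Its H9 value passed without primed H9 replicate 1 (0.000615), the highest of the primed libraries.

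Neighbouring genes on chromosome 5 served to set the members beside their surroundings. Of 11 tested neighbours, 3 rose and 2 fell in each line. The background was 20.4% higher and 23.9% lower in H9, and 23.1% and 23.7% in RUES2. FCHSD1 and RELL2 fell in both lines. FCHSD1 fell in H9 from 5.93 ± 0.676 to 2.0 ± 0.308 FPKM (-1.21, adjusted p = 2.4e-05, limma) and in RUES2 from 5.5 ± 0.298 to 1.88 ± 0.312 (-1.18, adjusted p = 2.82e-05, limma). RELL2 fell from 3.02 ± 1.21 to 0.462 ± 0.191 (-1.42, adjusted p = 0.000361, limma) and from 4.03 ± 0.594 to 1.09 ± 0.246 (-1.26, adjusted p = 0.00069, limma).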

How the data were processed

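Poly(A) RNA of 12 libraries was sequenced. Reads were handled with bcl2fastq 2.17.1.14 and TopHat2 2.1.1 on hg19, per the submitters' processing notes. Program and annotation behind the expression values: not given in the sources used here. Each library has 1 table of FPKM values deposited by the authors, per the file headers, although the series text speaks of RPKM. No read counts were used, so depth is unknown and no count test was run.

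Tables were joined by symbol and locus on the main chromosomes, and 310 symbols listed at more than 1 locus were represented by their most abundant one. Genes at 1 FPKM or more in at least 3 of the 12 libraries (14429) were tested on log2(FPKM + 1) with limma 3.58.1 in R 4.3.3: 4 group means, empirical Bayes with a variance trend, and Benjamini-Hochberg adjustment over all genes tested. A gene was called at an adjusted p under 0.05. The script was tested on simulated data. States were compared in each line, the difference of these effects was tested, and lines were compared in each state, giving 5 comparisons. Members not passing the filter were described by whether the libraries of the groups overlapped.

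Members named with values were those called in any comparison, the 3 with the highest mean in each cluster and the 5 C-type genes, with the 2 called genes of largest mean absolute change from each list of related genes. The members and lists were chosen with earlier results of these data known. Alternatives were a pseudocount of 0.1, no filter, a filter of 5 FPKM, no variance trend, median-of-ratios scaling, the replicate number as a block, only the groups compared, the sum of loci, and leaving out each library.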

Additional observations from a re-analysis of the deposited data

Results flagged for a closer look

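The naive effect on PCDHGA3 differed between the line labels by the test of the difference itself: the log2 difference was -1.08 (limma adjusted p = 0.0049). The gene was above 1 FPKM in the 3 naive H9 libraries and in no other library, so it entered the test only through the group in which it is high, and the value is a description. Over all genes with no filter, the adjusted p was 0.00291. Leaving out any 1 naive H9 library took it below the filter, so no value could be given there. The other leave-outs keep those 3 libraries and do not bear on this. This comparison uses libraries that carry the doubt about the line label.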

How the results depend on the processing

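Counts of called members moved most with the filter. With no filter, 15 members were lower in H9 and 27 in RUES2 (5 and 9 with the filter of 1 FPKM), 2 had a lower effect in RUES2 than in H9, 2 were higher and 0 lower in primed RUES2, and 1 was higher in the libraries labelled naive RUES2. With a filter of 5 FPKM, which leaves fewer members tested, 0 were lower and 2 higher in H9, 1 was lower in RUES2, and 0 were called for the difference, in either direction between the primed lines, or lower between the naive lines. Fitting only the groups compared gave 1 lower in H9, 0 in either direction between the primed lines, and 1 higher and 6 lower between the naive lines. In H9 the 4 members no longer counted as lower (PCDHA6, PCDHB16, PCDHB9 and PCDHB15) reached 1 FPKM in fewer than 3 H9 libraries and were not tested there. Between the lines the cause was not tested. Leaving out 1 library gave 2 to 6 lower and 2 to 4 higher in H9, 6 to 11 lower in RUES2, 0 to 2 lower and 0 to 1 higher for the difference, 0 to 2 higher and 0 to 4 lower between the primed lines, and 0 to 1 higher and 1 to 4 lower between the naive lines. Of 2831 alternatives for 150 single-gene results, 2721 kept the side of the threshold, 69 lost the call and 41 gained it. The direction changed in 0 of those where either fit called the gene. A change of direction in a result that neither fit called was not counted.

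Deviations of same-numbered libraries were weakly correlated (r from -0.0537 to 0.136 over 12 pairs, 2 above 0.1). In 7 of 12 comparisons of a library with another group, its own number correlated best. These values do not settle whether the numbers pair the libraries, and the main fits did not use them. With the replicate block, 4 members were higher and 4 lower in H9, 3 and 10 in RUES2, 0 and 2 for the difference, 1 and 0 between the primed lines, and 1 and 4 between the naive lines.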
